A study of Mus musculus with 768 samples.

Results

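The mouse Hox genes of the 4 Hox clusters were examined in single Schwann cells of the sciatic nerve at postnatal day 5. The members were all genes whose GENCODE vM21 symbol consists of Hox, a cluster letter from a to d and a number, which gave 39 of the 25700 genes in the count table (11 in Hoxa, 10 in Hoxb, 9 in Hoxc and 9 in Hoxd). The rule goes by name alone, although this gene family was taken up with earlier results of these data known. The cells came from mice on a C57bl/6J background that carried P0Cre, a Rosa26-eYFP reporter and a ubiquitous DsRed reporter driven by the beta actin promoter, and all cells share these alleles. P0Cre acts in the Schwann lineage, so that eYFP marks cells of this lineage. Sciatic nerves of 1 male and 1 female pup were pooled for each of 2 plates of 384 wells, eYFP+ cells were sorted 1 per well, and each well was sequenced with Smart-Seq2, which reads full-length polyadenylated transcripts without molecular identifiers. The plate is therefore the replicate, and the wells of a plate share their animals. Wells with at least 1500 detected genes were retained and corner wells were left out, which kept 655 of 768 wells, 325 on plate 1 and 330 on plate 2.

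Hox genes encode homeodomain transcription factors that give cells of the embryo their position along the head to tail axis. Within a cluster the genes are arranged in the order in which they are used: genes at the 3′ end, with low numbers, are used first and reach furthest towards the head, and genes at the 5′ end, with high numbers, are used later and towards the tail. Genes with the same number in different clusters are paralogs, and together they form a paralog group. Trunk neural crest, from which the Schwann cells of spinal nerves derive, is known to carry Hox expression that reflects its axial origin. Hox proteins bind DNA together with cofactors of the TALE homeodomain class (Pbx, Meis and Pknox proteins).

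The DNA-contacting helix of the homeodomain shows how alike the members are, and how far short reads could still tell them apart. The 30 bases that encode the first part of this helix were read from the GENCODE vM21 transcripts (build GRCm38) and are shown for members of the middle of 3 clusters, with capitals where a base differs from Hoxb7:
Hoxb7: cagatcaagatctggtttcagaaccggcgc
Hoxc9: cagGtcaaAatctggtttcagaaccggAgG
Hoxd8: cagGtAaaAatctggttCcagaacAggAgA
These lie in coding exons at chr11:96289514-96289543 (Hoxb7), chr15:102984059-102984088 (Hoxc9) and chr2:74706654-74706683 (Hoxd8), all on the plus strand. Hoxc9 differed from Hoxb7 at 4 of the 30 bases and Hoxd8 at 7. Over the other 38 members the number of bases that differed from Hoxb7 ranged from 1 to 10, with a median of 5. Along whole transcripts, the longest identical run between members at separate loci was 52 bases (Hoxa6 and Hoxb4). Of all 741 pairs, 4 shared a run of 50 bases or more. The others were Hoxb9 and Hoxc9 at separate loci (50 bases), and Hoxd3 with Hoxd4 (388 bases) and Hoxc5 with Hoxc10 (168 bases), whose annotated transcripts overlap. Whether reads were assigned to the wrong paralog was not tested.

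The retained wells were deep enough to see transcripts of low level in a part of the cells only. Their median total count was 593534 reads on plate 1 and 559286 on plate 2, with a range from 3306 to 2495101. Sox10, a transcription factor of the Schwann lineage, had 5 or more reads in 616 of 655 wells, and of the 5 lineage genes Sox10, S100b, Erbb3, Egr2 and Foxd3 at least 3 had so in 472 wells, 2 or more in 609 and 1 or more in 645. None of the 655 wells met the lists for fibroblast-like, endothelial, immune, pericyte or smooth muscle, neuron or skeletal muscle cells, each by a rule of 5 or more reads of 3 of 6 genes (0 wells allow a share of up to 0.458% of wells that meet a list, by counting error only). Single genes of these lists were more frequent. Col3a1 had 5 or more reads in 493 wells, Pdgfrb in 130, Cspg4 in 64 and Csf1r in 39. Every other gene of these lists had so in at most 29 wells. Wells were assigned to 4 states without use of any Hox gene. Cycling wells held 5 or more reads of at least 3 of 10 cell cycle genes. The other wells were immature if Ncmap, a gene of myelinating Schwann cells, was under 10 reads per 1e+06 reads of the well (CPM), intermediate if Pmp22, which encodes a myelin protein, was under 30000 CPM, and otherwise myelinating. Plates 1 and 2 held 32 and 25 cycling, 106 and 122 immature, 79 and 70 intermediate and 108 and 113 myelinating wells. The myelinating wells were deeper (medians of 819462 and 719230 reads) than the immature wells (476354 and 418998 reads).

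The first question was which positions of the clusters were transcribed in these cells. A gene was called on if at least 10% of the retained wells of each plate held 5 or more reads of it. Only Hoxb2 and Hoxb3 met this rule. Hoxb2, a paralog group 2 gene that patterns the hindbrain in the embryo, was detected in 25.8% of the wells of plate 1 (95% Clopper-Pearson interval 21.2 to 31.0) and 23.3% of those of plate 2 (18.9 to 28.3). Its neighbour Hoxb3 was detected in 15.1% (11.4 to 19.4) and 14.8% (11.2 to 19.2). The 2 plates differed by less than the counting error for both genes. These intervals cover counting error only, as reads amplified without molecular identifiers are not independent molecules.

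**Figure D1:**
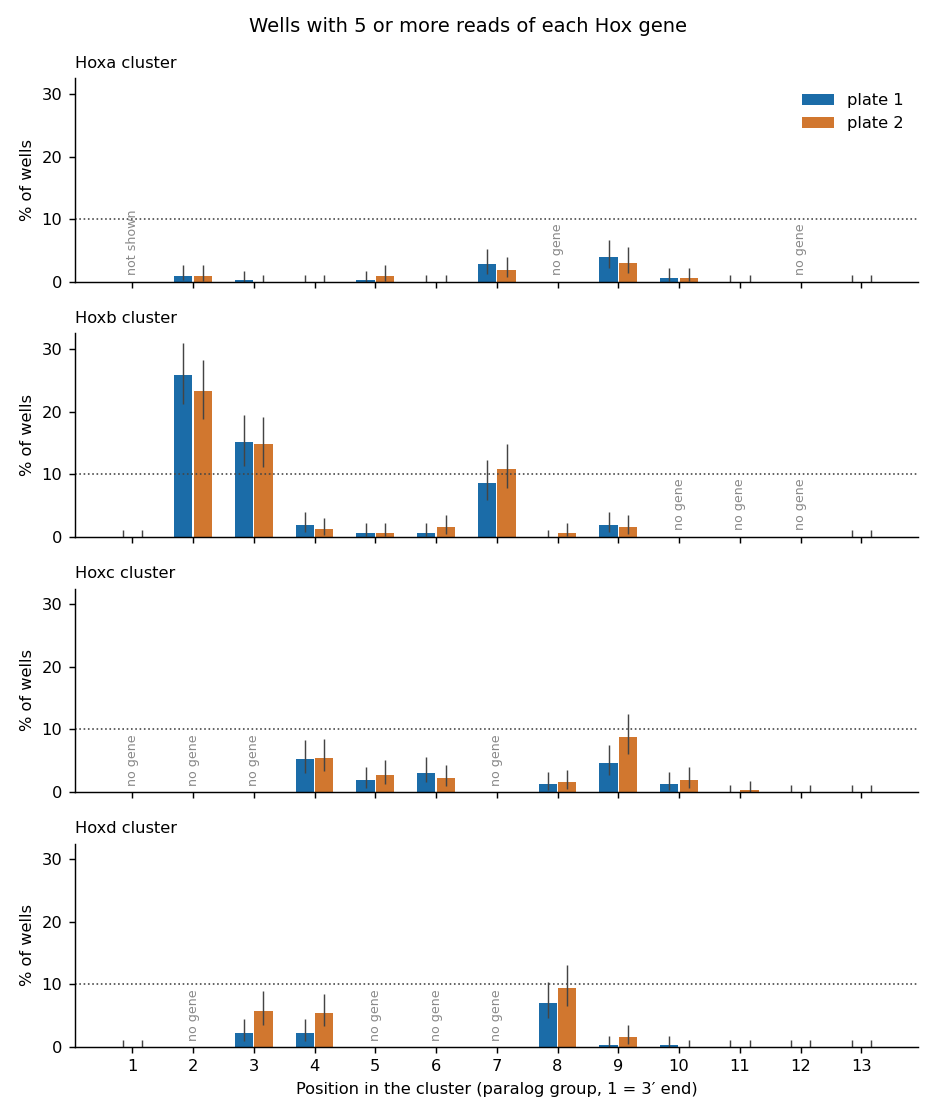
Share of retained wells with 5 or more reads of each Hox gene (percent, bars by plate; 325 wells on plate 1 and 330 on plate 2), by cluster and paralog group; error bars are 95% Clopper-Pearson intervals and the dotted line marks 10%. Hoxb2 and Hoxb3 stand above the line on both plates, Hoxb7 crosses it on plate 2 only, and no bar is seen beyond position 11 (1 gene of group 1 is not shown).

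The genes next to Hoxb2 and Hoxb3 in the cluster were far less frequent. Hoxb1, which follows Hoxb2 at the 3′ end, had no read in any retained well. Hoxb4, on the 5′ side of Hoxb3, had 5 or more reads in 10 of 655 wells (1.53%). The genes nearest to the 10% border were Hoxb7 and Hoxd8. Hoxb7 was detected in 8.62% of wells on plate 1 and 10.9% on plate 2, and thus lay on either side of the border, whereas Hoxd8 was detected in 7.08% and 9.39%. Hoxc9 followed with 4.62% and 8.79%, and Hoxc4 with 5.23% and 5.45%. The most frequent gene of the Hoxa cluster was Hoxa9, in 13 wells of plate 1 and 10 of plate 2.

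At least 1 Hox gene was detected in 57.1% of retained wells (interval 53.2 to 60.9). The 105 wells that failed the minimum of 1500 genes were too shallow (median 798 reads) to give a background for this share, and 3 of them held 5 or more reads of a Hox gene. Per read, Hox genes took 40.8 CPM in the failed and 89.4 CPM in the retained wells. The corner wells held 158513 reads in all and none of a Hox gene.

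Seen by position, detection lay almost entirely between paralog groups 2 and 10. Of the 39 members, 27 had at least 1 read in a retained well and 12 had none. These 12 were Hoxa4, Hoxa6, Hoxa11, Hoxa13, Hoxb1, Hoxb13, Hoxc12, Hoxc13, Hoxd1, Hoxd11, Hoxd12 and Hoxd13. At least 1 gene of groups 1 to 3 was detected in 34.2% of wells on both plates. Genes of groups 4 to 8 were detected in 28.6% of wells on plate 1 and 34.8% on plate 2, and those of groups 9 and 10 in 39 of 325 and 51 of 330 wells. Of the 9 genes of groups 11 to 13, which pattern the sacral and tail regions and the limb, only Hoxc11 was read, with 40 reads in 1 immature well of plate 2. The 6 genes of groups 12 and 13 had 0 reads in the 655 wells. A count of 0 allows a share of up to 0.458% of wells with reads, which is no limit on the cells that express these genes at a lower level.

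Detection was uneven between and within clusters. The Hoxb cluster (chr11:96194316-96368256) was detected in 39.5% of wells, the Hoxc cluster (chr15:102921103-103036852) in 16.9%, the Hoxd cluster (chr2:74668310-74765142) in 12.5% and the Hoxa cluster (chr6:52155590-52260880) in 7.02%. In all, 37704 reads were counted for Hox genes, or 0.00894% of the retained reads, and 61.9% of these belonged to the Hoxb cluster. Hoxb2 alone held 11163 reads and Hoxb7 8227, together 51.4% of all Hox reads. Hoxb7 thus had most of the reads of Hoxb2 in far fewer wells (64 against 161). In wells with 5 or more reads, Hoxb7 ranged from 6 to 341 reads with a median of 115, whereas Hoxb2 ranged from 5 to 505 with a median of 44. Hoxb3 had a median of 14.5 reads and Hoxc4 of 12 reads in the wells where they were detected.

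Per exon length, Hoxb7 exceeded Hoxb2. The mean level of Hoxb7 was 10.9 CPM per kilobase of exon on plate 1 and 14.4 on plate 2. For Hoxb2 these values were 7.66 and 7.50, and for Hoxd8, a gene of the middle of its cluster, 3.56 and 2.39. Hoxc9 had 1.41 and 2.91 CPM per kilobase and Hoxb3 1.16 and 1.11. The order of Hoxb7, Hoxb2 and Hoxd8 was the same on both plates, whereas the gap between Hoxc9 and Hoxb3 on plate 1 was smaller than the gap between the plates for Hoxc9.

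Overlapping transcripts limit what some of these counts mean. The annotated antisense gene Hoxb3os shares 2250 exon bases with Hoxb3 (52.9% of its exon length) and 953 with Hoxb2 (27.3%). Smart-Seq2 reads do not mark the strand, so that reads of Hoxb2 or Hoxb3 and of this antisense gene cannot be told apart within the shared bases. With all reads kept and the unshared bases alone as length, the mean level of both plates was 10.4 CPM per kilobase for Hoxb2 and 2.41 for Hoxb3. These are upper limits for the annotated unshared bases only, as reads in the shared bases are still counted. A transcript shorter than these bases would have a higher level. Hoxb7 shares no exon bases and stayed at 12.7 by the same measure. Hoxd3 and Hoxd4 share 388 exon bases, and their counts were the same in 35 of the 38 wells in which Hoxd3 was read. Values of Hoxd3 and Hoxd4 are therefore not independent. Hoxc5 and Hoxc10 share 166 exon bases.

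The next question was which Hox genes were detected in the same well. Among the 9 members with 5 or more reads in at least 20 wells, the pair of neighbours Hoxb2 and Hoxb3 shared the most wells. Both were detected in 61 wells, 32 on plate 1 and 29 on plate 2, whereas the product of their shares would give 12.7 and 11.4. As deeper wells detect more genes, the product was also taken within plate, state and 3 classes of depth, which gave 30.4 wells in all. Of the wells with Hoxb3, 62.2% also held Hoxb2, and of those with Hoxb2, 37.9% also held Hoxb3. Their counts were equal in only 2 wells. As both genes overlap Hoxb3os, its part in this overlap was not tested.

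As the most frequent members, Hoxb2 and Hoxb3 could share the most wells. Set against the product within classes their ratio was 2.00, and leaving aside Hoxd3-Hoxd4 it was higher in 4 pairs that shared fewer wells: Hoxa9 and Hoxc4 (3 wells, ratio 3.22), Hoxd4 and Hoxd8 (5 wells, 2.91), Hoxd3 and Hoxd8 (5 wells, 2.75) and Hoxa9 and Hoxb3 (9 wells, 2.13). Hoxb2 and Hoxb7 were found together in 24 wells (14.9 by the product within classes), and Hoxb2 and Hoxd8 in 16 (15.8). Hoxb3 and Hoxd8 shared 15 wells (9.61). Hoxb2 and Hoxc9 shared 8 wells (9.40), 1 on plate 1 and 7 on plate 2. Hoxd3 and Hoxd4 were found together in 25 wells, but these hold the same counts. Of the 36 pairs, 25 lay above the product within classes, and 2 pairs, both of Hoxa9 with Hoxd3 or Hoxd4, shared no well. As Hoxd3 and Hoxd4 hold largely the same counts, their pairs with any other gene are not separate observations. This applies to the pairs with Hoxd8 and with Hoxa9 named here, and to the count of 25. Wells share their plate, so no test was made over wells.

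**Figure D2:**
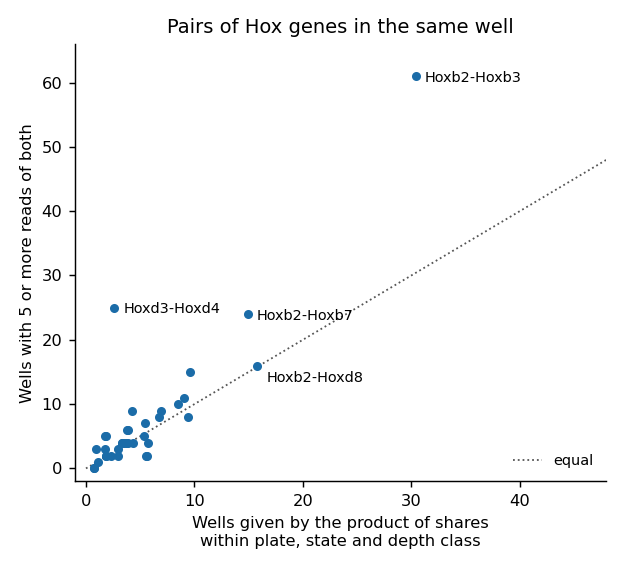
Number of wells with 5 or more reads of both genes (vertical axis) against the number given by the product of their shares within plate, state and depth class (horizontal axis), for the 36 pairs of 9 Hox genes; the dotted line marks equality. Hoxb2-Hoxb3 lies at 61 against 30.4 wells, and Hoxd3-Hoxd4 at 25 wells holds largely the same counts for both genes.

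A single well rarely showed more than a few members. No Hox gene reached 5 reads in 281 wells, 1 did in 195, 2 did in 113 and 3 or more did in 66, and the largest number was 7. The median was 1 Hox gene per well on each plate. By state, the median was 1 in cycling, immature and myelinating wells and 0 in intermediate wells, on both plates. The share of wells with any Hox gene was 75.0% and 60.0% in cycling wells of plates 1 and 2, 51.9% and 66.4% in immature, 48.1% and 44.3% in intermediate and 60.2% and 57.5% in myelinating wells. Intermediate wells were lowest on both plates, while the other states overlapped. At an equal depth of 200000 reads per well (589 wells, counting 1 read as detected), the expected mean number was 1.85 and 1.82 in cycling, 0.996 and 1.68 in immature, 0.797 and 0.916 in intermediate and 1.26 and 1.18 in myelinating wells.

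**Figure D3:**
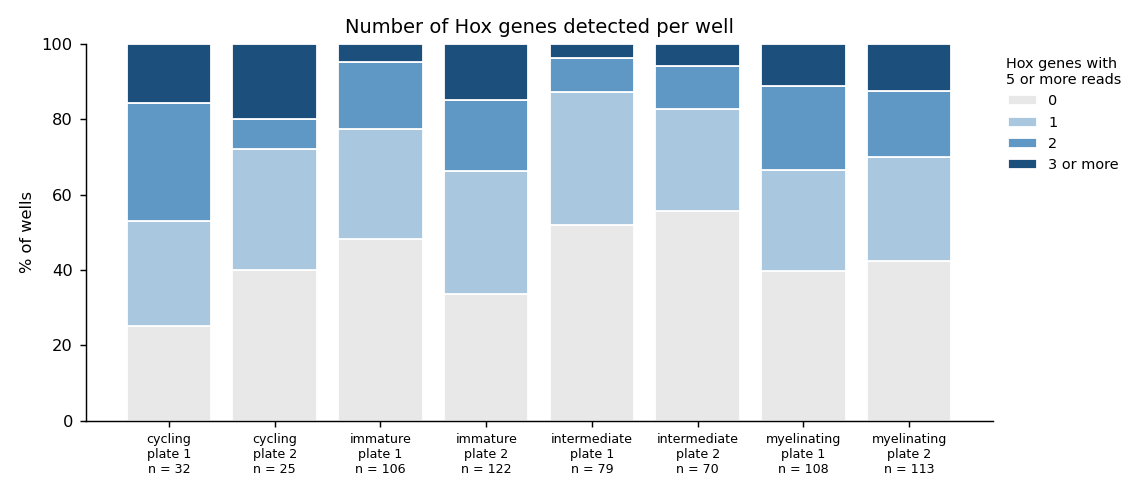
Share of wells (percent) with 0, 1, 2 or 3 or more Hox genes at 5 or more reads, in each state and plate; n gives the number of wells. The share with no Hox gene is highest in the intermediate wells of both plates, where 41 of 79 and 39 of 70 wells had none.

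Reads were then summed per plate and state, giving 8 sums, to compare levels between states with the plate as replicate. A sum cannot tell fewer positive cells from less RNA in each cell, so shares of wells are given beside it. The summed level of all 39 members was 173 CPM in cycling wells of plate 1 and 129 CPM in those of plate 2. It was 125 and 133 CPM in immature, 66.5 and 65.5 CPM in intermediate and 65.7 and 62.4 CPM in myelinating wells. Cycling and immature sums thus overlapped, and all 4 lay above the 4 sums of intermediate and myelinating wells, which nearly coincided. In CPM, higher counts of abundant genes lower the values of all others. The 10 genes Pmp22, Mbp, Mag, Prx, Pmp2, Mal, Cldn19, Ncmap, Fth1 and Mt1 took 14.3% of the reads of myelinating wells on both plates and 1.18% and 1.25% of those of immature wells. Without these genes in the denominator, the summed Hox level was 76.7 and 72.7 CPM in myelinating, 69.6 and 68.6 CPM in intermediate and 127 and 134 CPM in immature wells. This summed level has no test.

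Each gene was compared between states with edgeR's quasi-likelihood test on the 8 sums, with Benjamini-Hochberg adjustment over all 13904 genes tested. Of the 39 members 23 passed the filter on low counts. As such a filter can be passed through a single state in which a gene is high, counts over these 23 genes are descriptions. In myelinating against immature wells, 1 of the 23 members (Hoxc9, lower) passed the threshold of 0.05. Over all genes the share called was 5.14% in either direction and 2.54% lower in myelinating wells, so the count of members called is close to the background. No member was called in cycling against immature wells (2.58% of all genes called), in intermediate against immature wells (2.00%) or in myelinating against intermediate wells (0.784%). At an unadjusted p under 0.05, edgeR gave 2, 2 and 1 of the 23 members in these last 3 comparisons. The shares of all genes were 15.4%, 11% and 9.36%, and with only 23 members no difference from them is read. DESeq2 called 0, 1 and 1 members there, beside 9.69%, 6.20% and 4.44% of all genes. In myelinating against immature wells edgeR gave 3 members at an unadjusted p under 0.05 (16.3% of all genes) and DESeq2 called 3 (10.3%). The median log2 change of the 23 members was -0.42, -0.93, 0 and, in myelinating against immature wells, -1.32. Over all genes tested the medians were -0.13, -0.03, 0.00 and -0.04. In the same order, 15, 18, 11 and 13 of the 23 members had a negative change. As members could pass the filter through immature wells, and Hoxd3 and Hoxd4 hold largely the same counts, no shift of the family is read from these medians. With library size in place of TMM scaling, the genes called in myelinating against immature wells split into 252 higher and 697 lower, instead of 362 and 353. The 4 comparisons share the sums of immature, intermediate or myelinating wells and are not independent of each other.

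Hoxc9, a gene of the thoracic region that sets the identity of thoracic motor neurons, fell from immature to myelinating wells. Its level was 18 CPM in cycling wells of plate 1 and 25.1 CPM in those of plate 2. It was 5.51 and 13.1 CPM in immature wells and 2.01 and 6.92 CPM in intermediate wells. In myelinating wells it was 0.0305 and 0.149 CPM, from 3 and 13 reads. Both myelinating sums lay below all others, whereas the intermediate and immature sums overlapped. The log2 change between myelinating and immature wells was -6.29 ± 1.40 (SE), with an adjusted p of 0.0356 by edgeR. Each SE was derived as the absolute log2 change divided by the square root of the F statistic of the test. Within plates the log2 ratio was -7.50 on plate 1 and -6.46 on plate 2. Against intermediate wells the log2 change was -5.36 ± 1.35, with an adjusted p of 0.164 by edgeR, and cycling wells did not differ detectably from immature wells (1.316 ± 1.13, adjusted p = 0.618).

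The shares of wells with Hoxc9 ran in the order of the levels on plate 1, whereas on plate 2 the share was higher in immature than in cycling wells. It was detected in 7 of 32 and 3 of 25 cycling wells, in 7 of 106 and 18 of 122 immature wells, in 1 of 79 and 7 of 70 intermediate wells, and in 0 of 108 and 1 of 113 myelinating wells. At 200000 reads per well the share of wells with a read was 24.2% and 16.7%, 6.66% and 19.2%, 1.56% and 10.3%, and 0.962% and 2.49% in the same order, where the myelinating and intermediate values of different plates overlapped. Of the 44 wells with 5 or more reads, 40 had Pmp22 under 20000 CPM, as had 394 of all 655 retained wells. As Pmp22 also sets the border of the myelinating state, this is no separate result. The 6 myelinating wells with any read held at most 5 reads each.

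Where the border to myelinating wells was set mattered for this call. With the border at 20000 CPM of Pmp22, 38 wells moved from intermediate to myelinating, 3 of them with Hoxc9 (161 reads in all, at most 91 in a well). The log2 change was then -3.12 with an adjusted p of 0.444 by edgeR. A further alternative, chosen after seeing the data, left out of each sum each gene's own well of most reads. The log2 change of Hoxc9 was then -6.89 with an adjusted p of 0.156 by edgeR. Single wells weighed heavily in these sums: the top well held 96.8% of the Hoxc9 reads of intermediate wells on plate 1, 63.3% of those of cycling wells on plate 2 and 38.05% of those of immature wells on plate 1.

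The level of Col3a1, a fibrillar collagen gene of the fibroblast-like list, ran in the same order of states as Hoxc9, and its part in the Hoxc9 result was not tested. The summed level of the 6 fibroblast-like genes was 1687 and 2497 CPM in cycling, 1520 and 1786 CPM in immature, 746 and 537 CPM in intermediate and 132 and 157 CPM in myelinating wells. Nearly all of this was Col3a1 (1643 CPM in immature wells), which had 5 or more reads in 493 of the 655 retained wells. It was thus read in most of these sorted cells and does not by itself mark fibroblasts here. Dcn, a proteoglycan gene of fibroblasts, was also low in myelinating wells (0.759 CPM) but did not fall over the other states as Hoxc9 did. It had 11.8, 13.8 and 12.6 CPM in cycling, immature and intermediate wells, and 5 or more reads in 19 wells. Lum (8.97 CPM) and Pcolce2 (16.4 CPM) were highest in intermediate wells, from 6 and 3 wells with 5 or more reads. Cd34 was at 0 and Pdgfra at most 0.0113 CPM in cycling, immature and intermediate wells, and no retained well met the list of 3 of 6 genes.

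**Figure D4:**
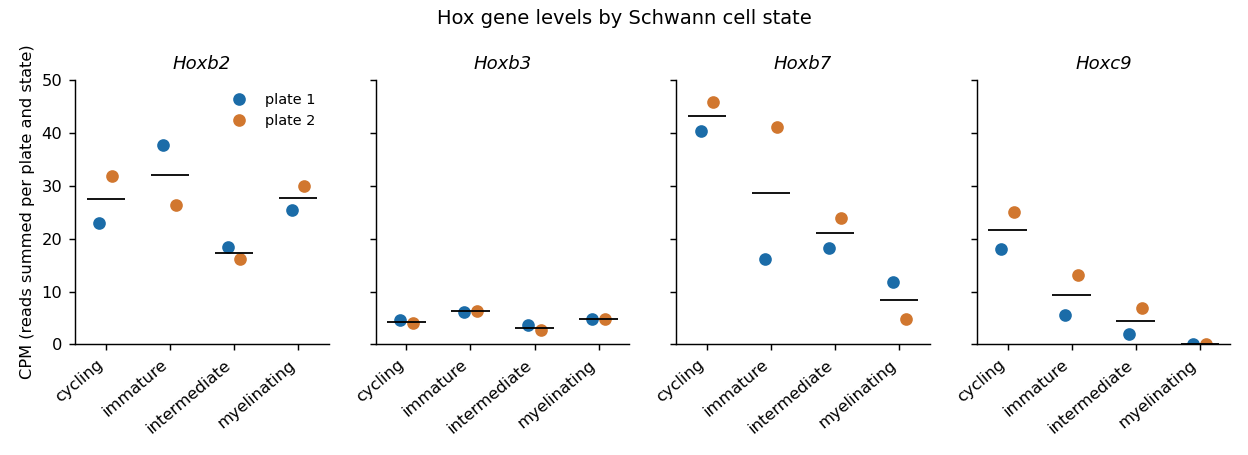
Level of Hoxb2, Hoxb3, Hoxb7 and Hoxc9 in CPM (vertical axis, linear) in the reads summed per plate and state (points by plate, lines at the mean of both plates). Hoxc9 falls to 0.0305 and 0.149 CPM in myelinating wells, while Hoxb2 and Hoxb3 stay within 16.1 to 37.7 CPM and 2.67 to 6.26 CPM.

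Hoxb2 and Hoxb3 were detected in all 4 states. The level of Hoxb2 was 22.98 and 31.9 CPM in cycling wells, 37.7 and 26.3 CPM in immature, 18.3 and 16.1 CPM in intermediate and 25.4 and 29.9 CPM in myelinating wells. Intermediate wells were lowest on both plates, while the other states overlapped. Myelinating and intermediate wells differed by a log2 change of 0.93 ± 0.50, with an adjusted p of 0.630 by edgeR. Against immature wells the log2 change was 0.17 ± 0.49 in myelinating (adjusted p = 0.945), -0.75 ± 0.50 in intermediate (0.662) and -0.12 ± 0.49 in cycling wells (0.958).

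The level of Hoxb3 was 4.63 and 4.02 CPM in cycling, 6.21 and 6.26 CPM in immature, 3.69 and 2.67 CPM in intermediate and 4.90 and 4.76 CPM in myelinating wells. Its intermediate wells were again the lowest on both plates. The log2 change was 0.85 ± 1.15 between myelinating and intermediate wells, and between -0.83 and 0.02 in the 3 comparisons with immature wells, with adjusted p values of 0.918 or more by edgeR in all 4.

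Between immature and myelinating wells, shares of wells did not follow these levels, except for Hoxb2 on plate 2. Hoxb2 was detected in 40.7% and 33.6% of myelinating wells of plates 1 and 2, in 18.9% and 19.7% of immature wells, in 13 of 79 and 7 of 70 intermediate wells and in 21.9% and 32.0% of cycling wells. At 200000 reads per well the shares were 43.1% and 35.0% in myelinating and 20.3% and 24.8% in immature wells. In wells with 5 or more reads, the median level was 44.2 CPM in myelinating and 122 CPM in immature wells. Hoxb3 showed the same arrangement, with 23.1% and 21.2% of myelinating and 11.3% and 14.8% of immature wells, and medians of 13.2 CPM and 35.9 CPM in positive wells. As myelinating wells were deeper, 5 reads are a lower CPM there, and these medians were not taken at equal depth. Intermediate wells had the lowest share of Hoxb2 on both plates and the lowest mean share of Hoxb3 (7.92%), as they had the lowest levels. Shares were higher in myelinating than in immature wells for both genes on both plates. Summed levels were lower in myelinating wells for Hoxb3 on both plates and for Hoxb2 on plate 1, but higher for Hoxb2 on plate 2. No order of these states is therefore read from either.

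**Figure D5:**
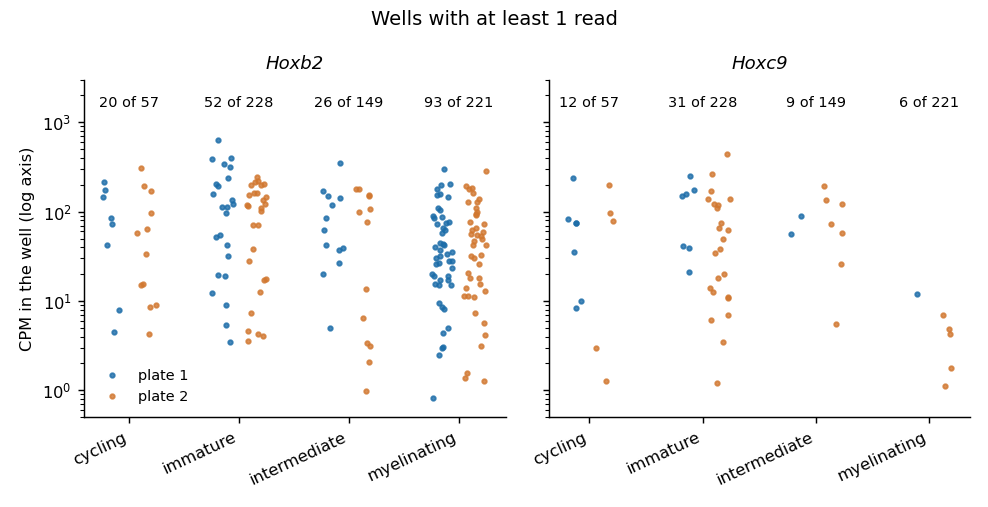
Level of Hoxb2 and Hoxc9 in each well with at least 1 read (CPM, log axis), by state and plate; the numbers above give the wells with a read out of all wells of the state. Hoxb2 is read in 93 of 221 myelinating wells, and Hoxc9 in 6 of 221, all at low levels.

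The other frequent members were not called in any comparison by edgeR with the filter on low counts. Hoxb7, a gene of the trunk, had 40.3 and 45.9 CPM in cycling, 16.2 and 41.1 CPM in immature, 18.3 and 23.9 CPM in intermediate and 11.9 and 4.83 CPM in myelinating wells. Both myelinating sums lay below all others, with a log2 change of -1.40 ± 0.67 against immature wells and an adjusted p of 0.355. Hoxb7 was detected in 12 of 221 myelinating and 13 of 57 cycling wells. Hoxd8 had 4.48 and 9.34 CPM in cycling and 11.1 and 7.35 CPM in myelinating wells, and its states overlapped. Hoxb9, next to Hoxb8 in the trunk part of its cluster, had no read in 149 intermediate wells against 681 reads in 228 immature wells. It had 613 reads in 57 cycling and 4 reads in 221 myelinating wells, and 1 well held 61.7% of its reads in immature wells of plate 1. Without the filter, edgeR called Hoxb9 lower in intermediate and in myelinating than in immature wells (adjusted p = 0.0127 and 0.0306). DESeq2 called it in both comparisons too. Hoxc6 and Hoxc10 had no read in 57 cycling wells against 186 and 248 reads in immature wells. On plate 1 a single immature well held 66.9% of the Hoxc6 reads, and a single well held 62.7% of the Hoxc10 reads. As these 3 genes were picked for their zeros and single wells held most of their immature reads on plate 1, no difference is read from them.

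Cofactors and regulators of Hox genes were looked at as a list. The 8 TALE cofactor genes Pbx2, Pbx3, Pbx4, Meis1, Meis2, Meis3, Pknox1 and Pknox2 were all read and tested, and none was called in any of the 4 comparisons by edgeR or DESeq2, with 1 of 8 at an unadjusted p under 0.05 by edgeR in myelinating against intermediate wells (9.36% of all genes) and 0 in the others. Pknox1 had 5 or more reads in 78 of 655 wells (11.9%), Meis3 in 70 and Pbx2 in 57, whereas Meis2 was found in 3 wells. Meis3 had 0.352 and 15.4 CPM in cycling wells, the latter from 1 well, 27.2 and 33.0 CPM in immature, 17.4 and 39.1 CPM in intermediate and 7.51 and 8.77 CPM in myelinating wells. Both myelinating sums lay below the immature and intermediate sums but within the range of the cycling sums, with a log2 change of -1.504 ± 1.25 against immature wells and an adjusted p of 0.673 by edgeR.

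Of 10 upstream regulators, Cdx1, Cdx2 and Cdx4, which activate Hox genes in the embryo, had no read in 655 wells. The 7 others were tested, and only Ezh2 was called. Ezh2, the methyltransferase subunit of the Polycomb complex that silences Hox clusters, had 179 and 250 CPM in cycling and 51.3 and 50.5 CPM in immature wells. This is a log2 change of 2.18 ± 0.31, with an adjusted p of 0.0111 by edgeR. Ezh2 is also known as a gene of dividing cells. The level of Kmt2a, which maintains Hox expression, was 26.3 and 45.1 CPM in immature and 30.9 and 26.3 CPM in myelinating wells (log2 change 0.06 ± 0.62, adjusted p = 0.989). Within or near the clusters the annotation lists 48 further genes, 4 of which are in the count table, and only Gm28308 reached 5 reads in a well, in 5 wells. The other 44, Hotair, Hottip and Hotairm1 among them, were not analysed here.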

How the data were processed

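Single eYFP+ cells of P5 sciatic nerves were profiled in 768 wells. The authors deposited raw read counts per Ensembl gene. According to the submitters' notes and the study's methods, reads were aligned with STAR and counted with featureCounts (builds GRCm38.p5 and, in the methods, a human build name); strand and overlap settings are not given in the sources used here. Of 25700 gene IDs, 25664 matched GENCODE vM21. Counts were summed per plate and state (8 sums) and tested with edgeR 4.0.16 (quasi-likelihood, TMM, filterByExpr, 4 residual degrees of freedom, Benjamini-Hochberg at 0.05), with DESeq2 1.42.0 as an alternative, in R 4.3.3. The scripts were tested on simulated counts. Values in every sum are given for members that were on or called; Hoxb7, Hoxd8, Hoxb9, Hoxc4, Hoxc6, Hoxc10 and Hoxa9 were named after their values were seen. The members, states and lists were chosen with earlier results of these data known. With 2 plates, p-values rest on the spread between sums from 2 pools of animals, which also includes the sampling of wells. The main fit treated the 8 sums as independent, although all states share the same 2 pools. Alternatives covered scaling, filters, borders of the states, depth and single wells. A few genes of the lists and a planned denominator are not reported here.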

Additional observations from a re-analysis of the deposited data

Results flagged for a closer look

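Signals were found in wells that no comparison used. In the 105 wells with fewer than 1500 detected genes, 5 Hox genes had more reads in all than the 3 that a count of 0 allows: Hoxa7 with 250 reads, Hoxd8 with 28, Hoxb7 with 10, Hoxb3 with 5 and Hoxb2 with 4. The Hoxa7 reads came from 1 well with 209566 reads and 1320 detected genes, and the Hoxd8 reads from 1 well with 70112 reads and 1116 detected genes. Over all these wells Hox genes took 40.8 CPM.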

How the results depend on the processing

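Hoxc9 kept its call in myelinating against immature wells in 10 of 12 alternatives with a test, with adjusted p values from 2.3e-07 to 0.444 over all 12. The number of members called there was 0 with the Pmp22 border at 20000 CPM and 0 without each gene's own well of most reads. It was 2 without a filter on low counts and 3 with DESeq2 (Hoxb9, Hoxc5 and Hoxc9). In intermediate against immature wells it was 1 without the filter and 1 with DESeq2 (Hoxb9), and in myelinating against intermediate wells 1 without the filter and 1 with DESeq2 (Hoxc9). With the plate as replicate block no call of a member changed, and Hoxc9 had an adjusted p of 0.0292. Signs turned only where no call was made. In myelinating against immature wells the log2 change with library size scaling was -0.21 for Hoxb2 and -0.37 for Hoxb3. For Hoxb3 it was also -0.060 with 2500 genes per well, -0.026 with Ncmap at 30 CPM, -0.11 with Pmp22 at 20000 CPM and -0.41 in thinned wells. For Hoxc9 in cycling against immature wells it was -0.79 with 5 cycling genes.

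The number of Hox genes on was 5 at a share of 5%, 1 at 20%, and 2 to 3 with either plate left out (Hoxb7 added on plate 2 alone). With a plate left out, 4 sums leave no test. The median per well stayed 1 in every alternative. Summed Hox levels were 64.6 CPM (intermediate) and 60.5 CPM (myelinating) without plate columns 8 and 16, 66.9 CPM (intermediate) with 2500 genes per well, and 69.1 and 74.7 CPM without 10 abundant genes in the denominator, a set chosen after seeing the data.

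Over all genes, the number called in cycling against immature, intermediate against immature, myelinating against intermediate and myelinating against immature wells was 848, 692, 435 and 1197 without the filter and 1600, 1023, 733 and 1703 with DESeq2, instead of 359, 278, 109 and 715. It was 787 in the first of these without each gene's own well of most reads in each sum. Library size scaling shifted the median log2 change of all genes from -0.04 to -0.42 in myelinating against immature wells, and left 21.99% of called genes higher in myelinating against intermediate wells instead of 45.9%. The causes were not tested. With 2 plates and genes read in few wells, single wells limit the precision.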
